A study of Homo sapiens with 12 samples.

Results

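The IL-6, JAK and STAT3 signaling genes described here were 10 rows of the count table chosen by symbol, which were the ligands IL6 and LIF, the receptor subunits IL6R, IL6ST and OSMR, the kinases JAK1 and JAK2, the transcription factor STAT3 and the inhibitors SOCS1 and SOCS3. All 10 were found among the 19225 entries of the table, and all 10 were among the 13887 genes with enough counts to be tested. The libraries came from HN6 and HN30, established human oral squamous cell carcinoma (OSCC) cell lines, which were transfected with a scrambled siRNA (NC) or with 1 of 2 siRNAs against FAT1 (siFAT1-1 and siFAT1-2) and harvested after 24 h. Each of these 6 conditions was sequenced in 2 repeats made at separate times, giving 4 NC and 8 FAT1 knockdown (KD) libraries. No other agent or genetic change was labelled, and the knockdown was transient. The sample titles name the knockdown groups as sh1 and sh2, while the descriptions name siRNAs. Polyadenylated RNA was counted per gene, and the libraries held 26430049 to 47639010 counts. Levels are given as CPM, counts scaled to a common library size by the TMM method. Differences are log2 fold changes with standard errors (SE) from a quasi-likelihood test in edgeR that took the cell line into account, and a gene was called at a Benjamini-Hochberg adjusted p under 0.05 over all genes tested. With 2 repeats in a condition, p-values measure the spread that each model leaves between libraries. For KD, over both lines, within a line or in the interaction, this spread also holds the difference between the siRNAs. For each siRNA over both lines, it also holds differences between the lines in their response. Only the model with a mean for each of the 6 conditions leaves the spread between repeats alone.

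IL-6 is a secreted cytokine that binds IL-6R and then the shared signaling subunit gp130, which IL6ST encodes. LIF, a related cytokine, and the oncostatin M receptor subunit encoded by OSMR use gp130 as well. Bound receptors activate JAK kinases, which phosphorylate STAT3, and STAT3 in turn switches on target genes that include SOCS3, whose product inhibits the receptor complex. Epithelial cancers of the head and neck often carry active STAT3. Messenger RNA levels do not show phosphorylation, so the values below describe the parts of the pathway and not its activity.

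Knockdown of FAT1 was seen in all 8 KD libraries, each of which had less FAT1 than the NC libraries of the same line. FAT1 in HN6 stood at 56.9 and 66.9 CPM under NC, 7.59 and 13.5 under siFAT1-1, and 13.2 and 21.4 under siFAT1-2. FAT1 in HN30 stood at 13.6 and 14.7 CPM under NC, 4.84 and 6.24 under siFAT1-1, and 10.8 and 7.77 under siFAT1-2. The KD libraries did not overlap with NC in either line, and the log2 fold change was -1.996 ± 0.318 (SE, adjusted p = 0.00656) with siFAT1-1 and -1.27 ± 0.311 (adjusted p = 0.0236) with siFAT1-2. The latter was not called without HN6 siFAT1-2 repeat 1 (adjusted p = 0.0716). Over both siRNAs it was -1.59 ± 0.308 (adjusted p = 0.0404), a call that held in 1 of the 12 fits that each left out a library, that without HN30 siFAT1-2 repeat 1 (adjusted p = 0.0241, against 0.055 to 0.124 in the others). By line, the decrease with siFAT1-1 was -2.55 ± 0.369 in HN6 (adjusted p = 0.0499) and -1.35 ± 0.359 in HN30 (adjusted p = 0.0946). That with siFAT1-2 was -1.84 ± 0.36 in HN6 (adjusted p = 0.0561) and only -0.61 ± 0.352 in HN30 (adjusted p = 0.422), where FAT1 stayed at 65.4% of NC. KD over both siRNAs was not called within HN6 (adjusted p = 0.191) or HN30 (0.538). In a bulk sample, fewer cells with a transcript and less of it per cell cannot be told apart.

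HN6 NC repeat 2 stood apart before any comparison. The repeats of NC in HN6 correlated at r = 0.942 across genes, the lowest of the 6 conditions, and 7.26% of genes differed by over 4-fold between them. Genes of low GC content (up to 42%) had a median log2 difference of -0.825 in repeat 2 against repeat 1, while those of high GC content (57.4% and above) had one of 0.233. Relative to the mean of all libraries, the median of the low-GC genes minus that of the high-GC genes was -1.29 on the log2 scale in HN6 NC repeat 2 and between -0.598 and 0.632 in the other 11 libraries. This value also differed between the siRNAs. With siFAT1-2 it was 0.372 and 0.632 in HN6 and 0.412 and 0.452 in HN30. With siFAT1-1 it was -0.598 and -0.209 in HN6 and 0.0691 and 0.0619 in HN30. The remaining NC libraries were at -0.13 in HN6 and at 0.0217 and 0.377 in HN30. IL6ST, at 36.5% GC, had the largest change of all 13887 genes between the NC repeats of HN6, and JAK2, at 36.7% GC, ranked 347. The siRNA and cell line comparisons of both genes are therefore given with and without this library, and a fit with a correction for GC content was added after seeing the data.

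**Figure D1:**
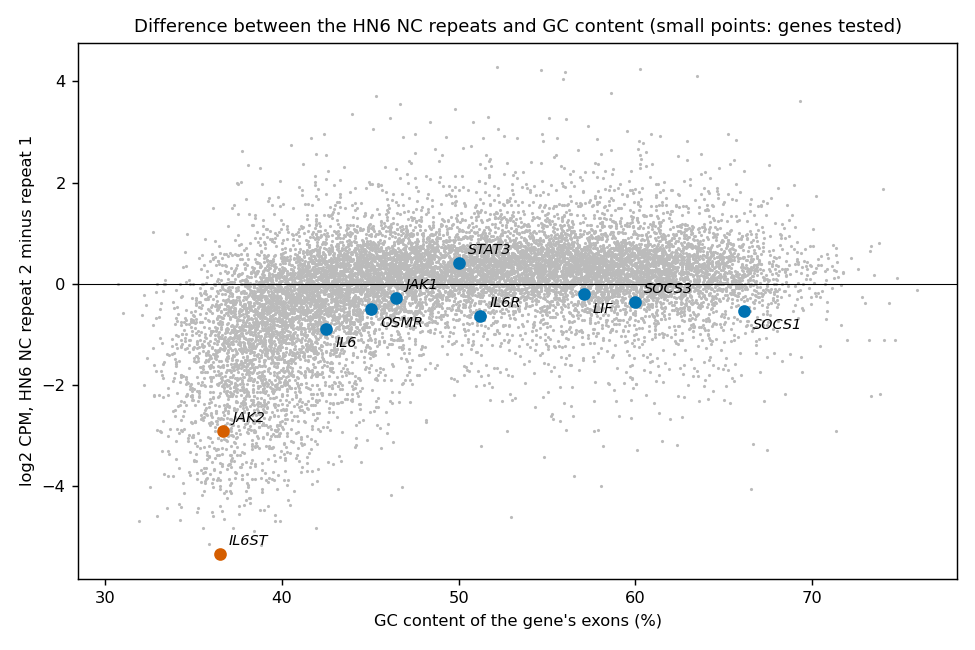
Each small point is a gene, placed by the GC content of its exons (x axis, percent) and by its log2 CPM in HN6 NC repeat 2 minus that in repeat 1 (y axis); the large points are the 10 pathway genes, with IL6ST and JAK2 in orange. IL6ST lies lowest, at -5.36, and JAK2 at -2.91, while the other 8 lie near 0 or within 1 unit of it.

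The cells had the markers of squamous epithelium. At least 9 of the 10 epithelial markers were above 1 CPM in every library, with summed levels of 1600 to 6290 CPM and KRT5, a basal keratin, at 90.5 to 1980 CPM. KRT14, another keratin of that list, reached 2.43 CPM at most and had a mean of 0 CPM under NC in HN30. The 7 fibroblast markers summed to 31.6 to 163 CPM, and COL1A2, COL3A1 and DCN were too low to be tested. By mean CPM, COL1A1 was the most abundant of them in HN6. In HN30, FAP and COL1A1 had means of 16.1 and 15.6 CPM under NC. There they were at 21.4 and 41.8 under siFAT1-1, and at 27.4 and 31.8 under siFAT1-2. The 7 immune markers summed to 24.6 to 123 CPM, with CD68 the most abundant, and the defining leukocyte genes PTPRC, CD3E and LYZ were too low to be tested. The 4 endothelial markers summed to 0.202 to 7.85 CPM. The epithelial sum in HN6 was 2620 and 3790 CPM under NC, 6290 and 5430 under siFAT1-1, and 2250 and 3190 under siFAT1-2. The same sum in HN30 was 2570 and 2410 CPM under NC, 3780 and 3640 under siFAT1-1, and 1600 and 2030 under siFAT1-2, so the siFAT1-1 libraries were highest in both lines. Against NC, 2 of 10 were called higher with siFAT1-1 (beside 1.16% of all genes), and 2 higher and 2 lower with siFAT1-2 (beside 4.35% and 7.47%). The epithelial markers differed between the siRNAs, with 5 of 10 higher and 1 lower with siFAT1-1 than with siFAT1-2 (beside 10% and 7.39% of all genes). Among those higher were KRT17 (log2 fold change 2.82 ± 0.397, adjusted p = 0.00145) and SFN (1.87 ± 0.206, adjusted p = 0.00059), and the lower one was DSG3 (-0.94 ± 0.289, adjusted p = 0.0422). Of the other markers, edgeR called 0 against NC for either siRNA, though other settings called up to 2 fibroblast markers higher, 1 fibroblast marker lower and 1 endothelial marker higher, and between the siRNAs 4 of the 9 tested were called higher and 1 lower with siFAT1-1, where the same 10% and 7.39% of all genes were. For the other settings, the shares of all genes called are not given here. KRT17, SFN and DSG3 were chosen after their values were seen, and the part of the difference between the siRNAs in the pathway results was not tested.

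The 10 genes did not move together. LIF, IL6 and SOCS3 fell with siFAT1-2, IL6R rose with siFAT1-1, and the siRNAs differed from each other in IL6R, LIF, STAT3 and SOCS3, which were all higher with siFAT1-1. No gene of the 10 was called for FAT1 KD against NC over both siRNAs. The 2 siRNAs share the same NC libraries, so their comparisons with NC are not independent of each other.

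**Figure D2:**
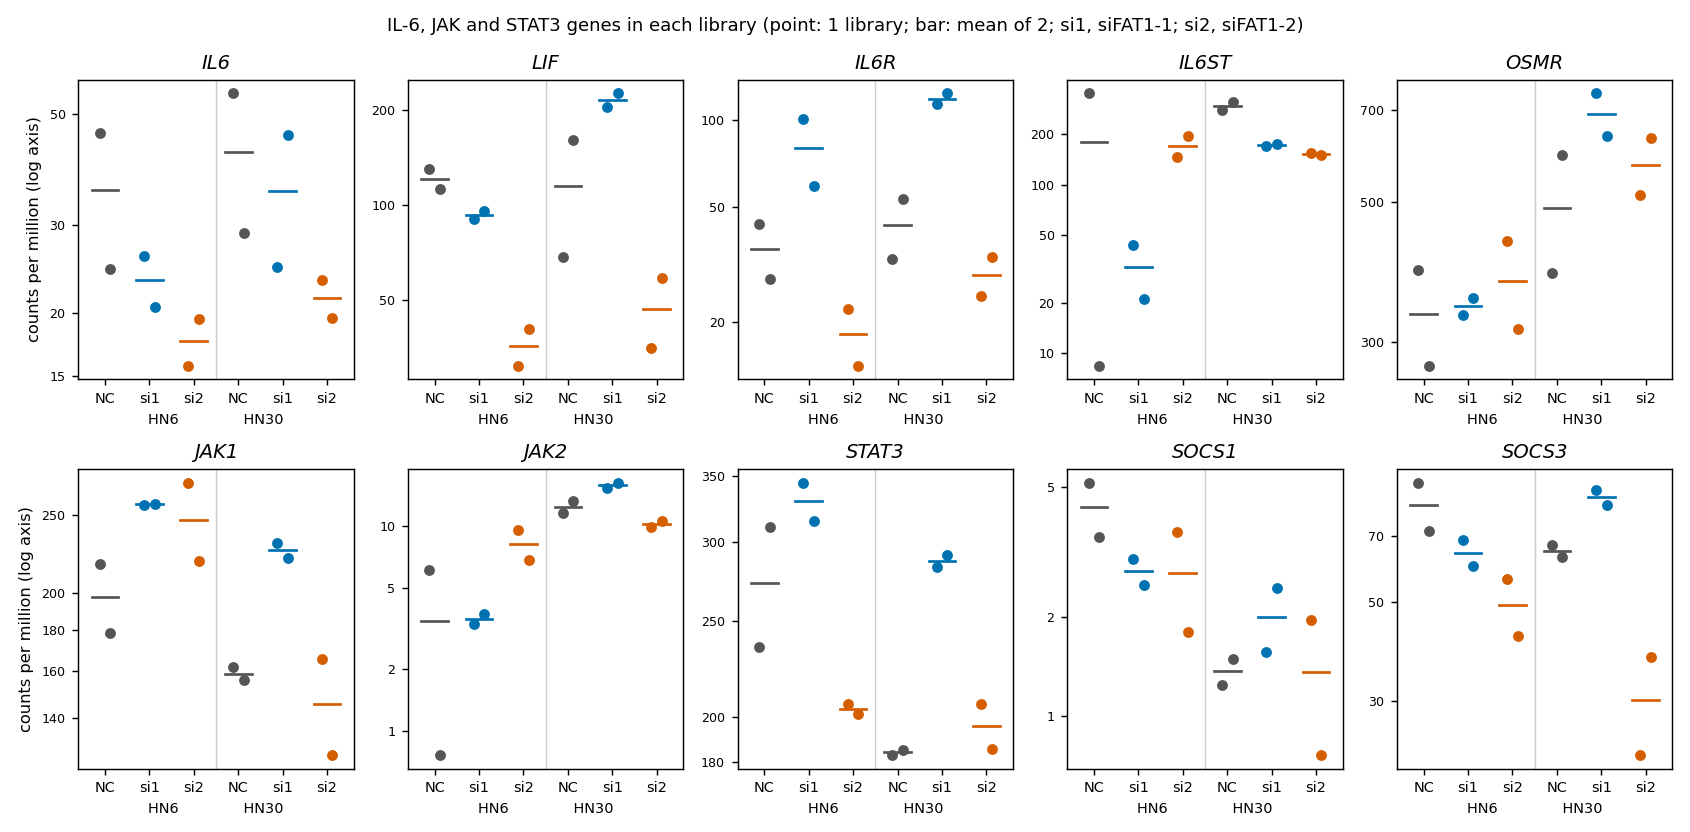
Level of each pathway gene in each of the 12 libraries, in CPM on a log axis, by cell line and siRNA (points, libraries; bars, mean of 2; si1 and si2 stand for siFAT1-1 and siFAT1-2). LIF and SOCS3 are lowest with siFAT1-2 in both lines, IL6R is highest with siFAT1-1 in both, and IL6ST has 1 NC library of HN6 far below the other.

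The promoter windows of IL6R, STAT3 and SOCS3 are shown because STAT factors act by binding DNA and each window holds a short motif of their kind. They were picked for that motif, no result here depends on them, and STAT binding was not tested. RefSeq windows on GRCh38.p14, from 250 bases before to 50 bases after a start site, were at hand for 9 of the 10 genes, all but LIF. STAT sites have TTC and GAA facing each other across a short gap, and these were searched as TTCNNGAA and TTCNNNGAA on both strands. Capitals mark the matches, read 5′ to 3′ on the strand of the gene.
IL6R, chr1:154405093-154405392, plus strand: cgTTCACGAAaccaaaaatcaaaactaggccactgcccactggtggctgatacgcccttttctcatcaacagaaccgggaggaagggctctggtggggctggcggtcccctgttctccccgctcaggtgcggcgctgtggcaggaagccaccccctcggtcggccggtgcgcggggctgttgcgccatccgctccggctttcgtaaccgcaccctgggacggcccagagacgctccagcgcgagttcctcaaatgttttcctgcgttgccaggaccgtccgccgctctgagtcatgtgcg
STAT3, chr17:42388393-42388692, minus strand: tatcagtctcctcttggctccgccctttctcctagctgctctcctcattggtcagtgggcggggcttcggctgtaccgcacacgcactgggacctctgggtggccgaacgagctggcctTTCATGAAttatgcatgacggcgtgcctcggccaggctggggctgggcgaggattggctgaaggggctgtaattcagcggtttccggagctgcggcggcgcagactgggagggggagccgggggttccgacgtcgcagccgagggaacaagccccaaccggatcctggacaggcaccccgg
SOCS3, chr17:78360876-78361175, minus strand: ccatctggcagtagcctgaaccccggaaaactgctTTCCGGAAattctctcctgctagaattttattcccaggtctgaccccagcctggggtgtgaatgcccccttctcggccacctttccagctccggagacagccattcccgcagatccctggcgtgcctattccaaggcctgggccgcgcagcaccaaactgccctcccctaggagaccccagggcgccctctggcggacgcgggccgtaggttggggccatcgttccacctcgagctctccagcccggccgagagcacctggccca
The matches TTCACGAA in IL6R, TTCATGAA in STAT3 and TTCCGGAA in SOCS3 began at positions -248, -131 and -215 from the start site, and a window of JAK1 held TTCTAGAA at -225. The SOCS3 window shown lies upstream of the GENCODE gene, and the other SOCS3 window held no match, as did the windows of IL6, IL6ST, OSMR, JAK2 and SOCS1. TTCNNGAA was in 7.74% of all 35116 windows of the table and TTCNNNGAA, which had no match in the windows of the 9 genes, in 7.66%. A match is a description of the letters and not a binding site.

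IL6 (ENSG00000136244, chromosome 7 from 22725884 to 22732002, plus strand, GRCh38), the cytokine itself, fell with siFAT1-2. IL6 in HN6 stood at 45.8 and 24.5 CPM under NC, 25.9 and 20.6 under siFAT1-1, and 15.7 and 19.4 under siFAT1-2. IL6 in HN30 stood at 54.9 and 28.9 CPM under NC, 24.8 and 45.3 under siFAT1-1, and 23.3 and 19.5 under siFAT1-2. Both siFAT1-2 libraries lay below both NC libraries in each line, while the siFAT1-1 libraries overlapped with NC in both. The log2 fold change was -0.98 ± 0.275 (adjusted p = 0.0390) with siFAT1-2 and -0.42 ± 0.273 (adjusted p = 0.426) with siFAT1-1, and the difference between the siRNAs was 0.57 ± 0.274 (adjusted p = 0.167). The call with siFAT1-2 was lost with the repeat as a block (adjusted p = 0.0565). It was also lost in 7 of the 12 fits that left out a library, which were HN6 NC repeat 1, both HN6 siFAT1-1 libraries, HN6 siFAT1-2 repeat 1, HN30 NC repeat 1 and both HN30 siFAT1-2 libraries, with an adjusted p of 0.0507 or more.

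LIF (ENSG00000128342, chromosome 22 from 30240453 to 30246759, minus strand), a ligand of the same family that signals through LIFR and gp130, had the largest decrease of the 10 genes with siFAT1-2. LIF in HN6 stood at 130 and 112 CPM under NC, 90.0 and 95.8 under siFAT1-1, and 30.9 and 40.5 under siFAT1-2. LIF in HN30 stood at 68.6 and 161 CPM under NC, 205 and 226 under siFAT1-1, and 35.2 and 58.7 under siFAT1-2. Every siFAT1-2 library lay below every NC library of its line, and the siFAT1-1 libraries lay below NC in HN6 and above it in HN30. With siFAT1-2, LIF fell to 0.341 times its NC level (log2 fold change -1.55 ± 0.312, adjusted p = 0.0105), a call that held in all 12 fits that left out a library. With siFAT1-1 the log2 fold change was 0.28 ± 0.309 (adjusted p = 0.657). LIF was 3.57 times higher with siFAT1-1 than with siFAT1-2 (1.84 ± 0.316, adjusted p = 0.00358), again in all 12 such fits.

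Among the receptors, IL6R (ENSG00000160712, chromosome 1 from 154405193 to 154469450, plus strand), which binds IL-6, separated the siRNAs most among the 10 genes. IL6R in HN6 stood at 43.5 and 28.0 CPM under NC, 101 and 59.1 under siFAT1-1, and 22.1 and 14.1 under siFAT1-2. IL6R in HN30 stood at 32.9 and 53.3 CPM under NC, 113 and 123 under siFAT1-1, and 24.6 and 33.6 under siFAT1-2. All 4 siFAT1-1 libraries lay above the NC libraries of their line, whereas siFAT1-2 lay below NC in HN6 and overlapped with it in HN30. IL6R rose 2.48-fold with siFAT1-1 (log2 fold change 1.31 ± 0.25, adjusted p = 0.0153). This call was lost, at adjusted p of 0.0577 to 0.0665, without HN6 siFAT1-1 repeat 1, HN30 NC repeat 1 or either HN30 siFAT1-1 library. With siFAT1-2 the log2 fold change was -0.77 ± 0.248 (adjusted p = 0.0625), which passed with the repeat as a block (adjusted p = 0.0177), with the block and the GC correction (0.0295) and in DESeq2 (0.0334). The difference between the siRNAs, of 2.08 ± 0.256 (4.24-fold, adjusted p = 0.000953), held in all 12 fits that left out a library.

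IL6ST (ENSG00000134352, chromosome 5 from 55935095 to 55995022, minus strand) encodes gp130, the subunit shared by the receptors of IL-6, LIF and oncostatin M. IL6ST in HN6 stood at 348 and 8.45 CPM under NC, 44.1 and 21.0 under siFAT1-1, and 146 and 195 under siFAT1-2. IL6ST in HN30 stood at 276 and 310 CPM under NC, 171 and 174 under siFAT1-1, and 154 and 151 under siFAT1-2. All 4 KD libraries of HN30 lay below NC, and in HN6 the NC libraries spanned all the others. No change was called, with log2 fold changes of -1.43 ± 0.792 (adjusted p = 0.345) for siFAT1-1 and -0.40 ± 0.766 (adjusted p = 0.766) for siFAT1-2. Without HN6 NC repeat 2 they were -1.78 (adjusted p = 0.0735) and -0.83 (adjusted p = 0.318).

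OSMR (ENSG00000145623, chromosome 5 from 38845858 to 38945596, plus strand), the oncostatin M receptor subunit, had the highest mean CPM of the 10 genes and was not called in any comparison. It ran from 275 to 434 CPM over the HN6 libraries and from 386 to 743 CPM over those of HN30. Its log2 fold change was 0.28 ± 0.190 (adjusted p = 0.449) with siFAT1-1 and 0.20 ± 0.189 (adjusted p = 0.520) with siFAT1-2. The difference between the siRNAs had a 95% interval of -0.293 to 0.451 on the log2 scale.

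The kinases were not called. JAK1 (ENSG00000162434, chromosome 1 from 64833223 to 65067754, minus strand), which sits on gp130, stood in HN6 at 217 and 178 CPM under NC, 257 and 258 under siFAT1-1, and 274 and 219 under siFAT1-2. JAK1 in HN30 stood at 162 and 156 CPM under NC, 231 and 221 under siFAT1-1, and 166 and 126 under siFAT1-2. The siFAT1-1 libraries lay above NC in both lines, with a log2 fold change of 0.45 ± 0.160 (adjusted p = 0.151), and the siFAT1-2 value was 0.11 ± 0.160 (adjusted p = 0.687). JAK2 (ENSG00000096968, chromosome 9 from 4984390 to 5129948, plus strand), another kinase of the receptor complex, was low, with 27 to 528 counts in a library. It was at 6.12 and 0.763 CPM with NC in HN6 and at 11.5 and 13.2 in HN30, and its KD libraries ran from 3.32 to 16.2 CPM over both lines. Its log2 fold changes were 0.24 ± 0.511 (adjusted p = 0.841) and 0.58 ± 0.523 (adjusted p = 0.494), and without HN6 NC repeat 2 they were -0.12 (adjusted p = 0.877) and 0.17 (adjusted p = 0.807).

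STAT3 (ENSG00000168610, chromosome 17 from 42313324 to 42388540, minus strand), the transcription factor of the pathway, was higher with siFAT1-1 than with siFAT1-2 in both lines. STAT3 in HN6 stood at 235 and 311 CPM under NC, 344 and 315 under siFAT1-1, and 206 and 201 under siFAT1-2. STAT3 in HN30 stood at 183 and 185 CPM under NC, 283 and 291 under siFAT1-1, and 206 and 186 under siFAT1-2. The siFAT1-1 libraries lay above NC in both lines, and those of siFAT1-2 lay below NC in HN6 and above it in HN30. Against NC, the log2 fold change was 0.46 ± 0.143 (adjusted p = 0.110) with siFAT1-1 and -0.17 ± 0.143 (adjusted p = 0.465) with siFAT1-2. The former passed with the GC correction (0.53 ± 0.121, adjusted p = 0.0250), in DESeq2 (0.49 ± 0.153, adjusted p = 0.0227) and without HN6 NC repeat 2 (0.57, adjusted p = 0.0262). The difference between the siRNAs was 0.62 ± 0.143 (1.54-fold, adjusted p = 0.0133), which was lost without HN30 siFAT1-1 repeat 2 (adjusted p = 0.0537).

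SOCS3 (ENSG00000184557, chromosome 17 from 78356778 to 78360077, minus strand), the feedback inhibitor that STAT3 induces, fell with siFAT1-2. SOCS3 in HN6 stood at 92.2 and 72.03 CPM under NC, 68.6 and 60.03 under siFAT1-1, and 56.2 and 41.9 under siFAT1-2. SOCS3 in HN30 stood at 67.1 and 62.9 CPM under NC, 88.8 and 82.2 under siFAT1-1, and 22.7 and 37.5 under siFAT1-2. Every siFAT1-2 library lay below both NC libraries of its line, and siFAT1-1 lay below NC in HN6 and above it in HN30. The log2 fold change was -0.91 ± 0.243 (adjusted p = 0.0336) with siFAT1-2 and 0.06 ± 0.242 (adjusted p = 0.920) with siFAT1-1, a difference of 0.96 ± 0.246 (adjusted p = 0.0206). With the GC correction (SOCS3 has 60% GC), neither the decrease (-0.63 ± 0.252, adjusted p = 0.132) nor the difference (0.68 ± 0.255, adjusted p = 0.0833) was called. The decrease was also lost without HN6 NC repeat 1, HN6 siFAT1-1 repeat 1, HN6 siFAT1-2 repeat 2, HN30 NC repeat 1 or either HN30 siFAT1-2 library, at adjusted p of 0.0547 to 0.0768. The difference was lost without either HN30 siFAT1-1 library or HN30 siFAT1-2 repeat 1, at 0.0546 to 0.0695.

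SOCS1 (ENSG00000185338, chromosome 16 from 11254417 to 11256204, minus strand), another inhibitor, which binds JAK kinases, was low throughout. It ran from 1.81 to 5.17 CPM in HN6 and from 0.760 to 2.46 CPM in HN30, with 26 to 151 counts in a library. Its log2 fold change was -0.06 ± 0.399 (adjusted p = 0.954) with siFAT1-1 and -0.38 ± 0.394 (adjusted p = 0.560) with siFAT1-2. The 95% interval of the difference between the siRNAs was -0.456 to 1.09 on the log2 scale.

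**Figure D3:**
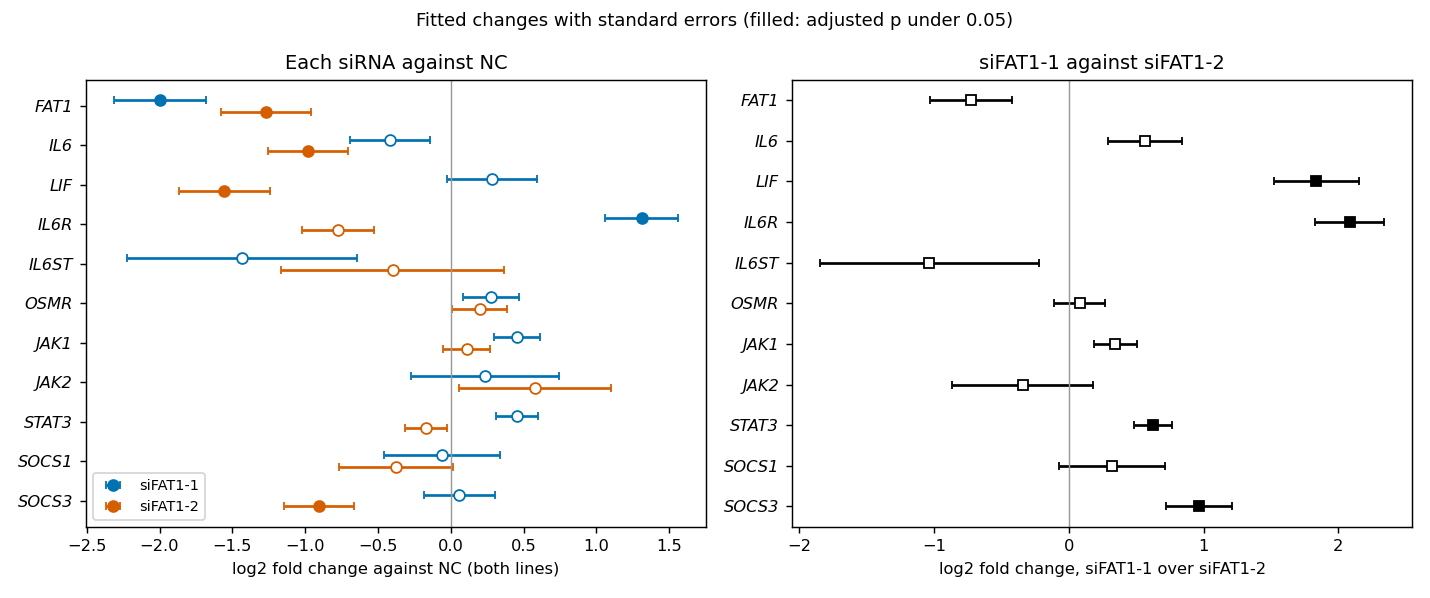
Fitted log2 fold changes (x axis) of FAT1 and the 10 pathway genes (y axis) over both cell lines, for each siRNA against NC (left) and for siFAT1-1 against siFAT1-2 (right); bars are standard errors and filled symbols had an adjusted p under 0.05. Filled symbols are IL6R for siFAT1-1, IL6, LIF and SOCS3 for siFAT1-2, and LIF, IL6R, STAT3 and SOCS3 for the difference between siRNAs, with FAT1 filled for both siRNAs against NC.

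Read against all genes, 1 of the 10 was called higher and 0 lower with siFAT1-1, where 1.16% of the 13887 genes were called higher and 2.09% lower. With siFAT1-2, 3 of 10 were called lower and 0 higher, where 7.47% of genes were called lower and 4.35% higher. Between the siRNAs 4 of 10 were called higher with siFAT1-1 and 0 lower, where 10% and 7.39% of genes were. The median log2 fold change of the 10 genes was 0.257 with siFAT1-1 and -0.388 with siFAT1-2, beside -0.00407 and -0.00439 over all genes tested. By library, 3 genes (IL6R, JAK1 and STAT3) had all siFAT1-1 libraries above both NC libraries in each line, as did 9.97% of genes, and 3 (IL6, LIF and SOCS3) had all siFAT1-2 libraries below them, as did 12.9%.

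Over both siRNAs, FAT1 KD against NC gave no call among the 10 genes, where 0.547% of all genes were called. DESeq2 and limma-voom called 0 as well. At an unadjusted P under 0.05 only IL6 passed, with a log2 fold change of -0.67 ± 0.267 (adjusted p = 0.273, and 0.189 to 0.753 over the alternatives), where 7.75% of genes passed as lower and 6.77% as higher. None met the thresholds of the study, an unadjusted P under 0.05 with an absolute log2 fold change above 1, which 3.07% of genes did. None of the 10 had all 8 KD libraries on 1 side of NC in both lines, as 2.28% of genes did above NC and 3.2% below it. Within HN6 0 of 10 were called (0% of all genes), within HN30 0 of 10 (0.0144% of genes), and for the interaction of cell line and KD 0 of 10 (0% of genes). In these 3 comparisons 0 of 10 passed an unadjusted P under 0.05 in edgeR, where 7.83%, 8.43% and 2.15% of genes did, and DESeq2 and limma-voom called 0.

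The cell lines differed in 2 of the 10 genes without knockdown. In HN30 NC against HN6 NC, STAT3 was lower by a log2 fold change of -0.57 ± 0.183 (adjusted p = 0.0390) and SOCS1 by -1.66 ± 0.552 (adjusted p = 0.0430), and 0 were higher, where 16.9% of genes were called lower and 15.7% higher. JAK2 had a log2 fold change of 1.85 ± 0.685 (adjusted p = 0.0634) and IL6ST one of 0.72 ± 1.04 (adjusted p = 0.625). Without HN6 NC repeat 2 these were 1.00 ± 0.339 (adjusted p = 0.0603) and -0.26 ± 0.368 (adjusted p = 0.647). Without repeat 1 they were 3.99 and 5.10, values that rest on repeat 2, the library short of low-GC transcripts, as the only NC library of HN6, with its spread assumed from the other groups. The STAT3 value was not called with the GC correction (-0.34 ± 0.160, adjusted p = 0.132), and without HN6 NC repeat 2 it was -0.36 (adjusted p = 0.195). STAT3 held in 5 and SOCS1 in 4 of the 12 fits that left out a library, and HN6 NC repeat 2, both HN30 NC libraries, both HN6 siFAT1-1 libraries and both HN30 siFAT1-1 libraries each ended both calls, with HN6 NC repeat 1 ending that of SOCS1 as well.

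Ordered by CPM per kilobase of exon in the NC libraries of HN30, OSMR came first (68.2 ± 20.3, SD, n = 2), then LIF (29.6 ± 16.8), IL6ST (24.3 ± 2.00), SOCS3 (23.8 ± 1.06), STAT3 (16.4 ± 0.138), JAK1 (12.1 ± 0.304), IL6 (9.69 ± 4.25), IL6R (6.17 ± 2.06), JAK2 (1.56 ± 0.147) and SOCS1 (0.765 ± 0.0959). There the range of 1 SD around the mean of LIF overlapped with those of IL6ST, SOCS3, STAT3 and IL6, that of IL6ST with SOCS3, and that of IL6 with JAK1 and IL6R. In HN6 the order was OSMR (46.4 ± 11.3), LIF (31.3 ± 3.29), SOCS3 (30 ± 5.22), STAT3 (24.4 ± 4.8), JAK1 (15 ± 2.08), IL6ST (14.8 ± 19.9), IL6 (8.14 ± 3.48), IL6R (5.11 ± 1.56), SOCS1 (2.43 ± 0.645) and JAK2 (0.435 ± 0.479). In this line LIF, SOCS3 and STAT3 overlapped with each other, OSMR with SOCS3 and IL6 with IL6R, while IL6ST overlapped with all but OSMR. In HN6 NC repeat 1 alone, IL6ST was at 28.9 and ranked 4, and JAK2 was at 0.774 and ranked 10. OSMR ranked first and JAK2 and SOCS1 last in both lines. With the length of the longest transcript in place of all exons, STAT3 moved up to rank 2 in both lines, and LIF moved to rank 4 in HN30 and rank 3 in HN6.

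The wider pathway was followed in lists written by hand, in none of which edgeR called a gene for KD against NC over both siRNAs. DESeq2 called 8 of the 120 tested genes of these lists (6.67%) beside 4.61% of all genes in that comparison, CTF1, LEPR and PTPN11 as higher and TYK2, SOCS7, CSF1, IL1B and IL2RG as lower, at adjusted p of 0.00585 to 0.0375. Of 9 other ligands of the family, 7 could be tested. EBI3, a subunit of IL-27, fell with siFAT1-2 (log2 fold change -2.13 ± 0.495, adjusted p = 0.0190), from means of 12.8 and 10.1 CPM with NC in HN6 and HN30 to 5.69 and 1.11, a call lost without HN30 siFAT1-2 repeat 1 (adjusted p = 0.0649). With siFAT1-1 edgeR called 0 of the 7, beside 1.16% of all genes called higher. At an unadjusted P under 0.05, 4 of the 7 passed, all higher, as did 1224 of all 13887 genes. For DESeq2 with siFAT1-1, the share of all genes called is not given here. DESeq2 called 3 of them higher, among them CTF1 (0.92 ± 0.294, adjusted p = 0.0256) and IL11 (1.1 ± 0.351, adjusted p = 0.0248), and 2 were called without HN6 siFAT1-2 repeat 1. CLCF1, a ligand of the CNTF receptor, was higher with siFAT1-1 than with siFAT1-2, by 1.28 ± 0.3 (adjusted p = 0.0148), and was not called without either HN30 siFAT1-1 library (adjusted p = 0.0514 and 0.0518). OSM, the ligand of OSMR, was at 0.584 CPM or less in every library, and CNTF was not called for either siRNA against NC. CTF1 was also higher with siFAT1-2 in DESeq2 (adjusted p = 0.0392) and with the GC correction (adjusted p = 0.0368), though not in the uncorrected edgeR test.

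Of the 5 other receptors 4 could be tested. IL11RA, the receptor of IL-11, fell with siFAT1-2 by a log2 fold change of -1.33 ± 0.261 (adjusted p = 0.00941) and was 1.61 ± 0.262 higher with siFAT1-1 than with siFAT1-2 (adjusted p = 0.00285), both in all 12 fits that left out a library. Its mean was 3.58 CPM with NC and 1.34 with siFAT1-2 in HN6, and 6.44 and 2.73 in HN30. LIFR, which pairs with gp130 to bind LIF, IL31RA and IL27RA were not called against NC for either siRNA, except IL27RA without HN30 NC repeat 2 (adjusted p = 0.0337 with siFAT1-1 and 0.0375 with siFAT1-2). IL27RA had a log2 fold change of -0.65 ± 0.231 over both siRNAs (adjusted p = 0.222).

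Among the 8 other JAKs and STATs, STAT5A had the largest log2 fold change for an siRNA. STAT5A in HN6 stood at 13.2 and 8.23 CPM under NC, 6.60 and 4.89 under siFAT1-1, and 1.38 and 0.785 under siFAT1-2. STAT5A in HN30 stood at 25.2 and 22.3 CPM under NC, 18.1 and 19.8 under siFAT1-1, and 7.08 and 7.21 under siFAT1-2. Every KD library lay below NC in both lines. STAT5A fell with siFAT1-2 (log2 fold change -2.46 ± 0.338, adjusted p = 0.00253) in all 12 fits that left out a library, and over both siRNAs it was at -1.26 ± 0.487 (adjusted p = 0.260). TYK2, a kinase of gp130 receptors, fell with siFAT1-2 (-0.62 ± 0.150, adjusted p = 0.0222), a call lost with the GC correction (adjusted p = 0.139) and without HN6 siFAT1-2 repeat 1 (0.0508) or HN30 NC repeat 1 (0.0735). JAK3, the kinase of the common gamma chain, rose with siFAT1-1 (1.72 ± 0.402, adjusted p = 0.0387) from very low levels of at most 2.79 CPM, and this held in 4 of 12 such fits, since leaving out any 1 of the NC or siFAT1-1 libraries ended it (adjusted p = 0.0511 to 0.142). Between the siRNAs, JAK3 (1.57 ± 0.395, adjusted p = 0.0199), STAT2 (0.89 ± 0.195, adjusted p = 0.0105) and STAT5A (1.82 ± 0.329, adjusted p = 0.00448) were higher with siFAT1-1. STAT2 and STAT5A held in all 12 fits that left out a library and JAK3 in 8, its call being lost without HN6 siFAT1-1 repeat 1, either HN30 siFAT1-1 library or HN30 siFAT1-2 repeat 1 (adjusted p = 0.0527 to 0.07).

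**Figure D4:**
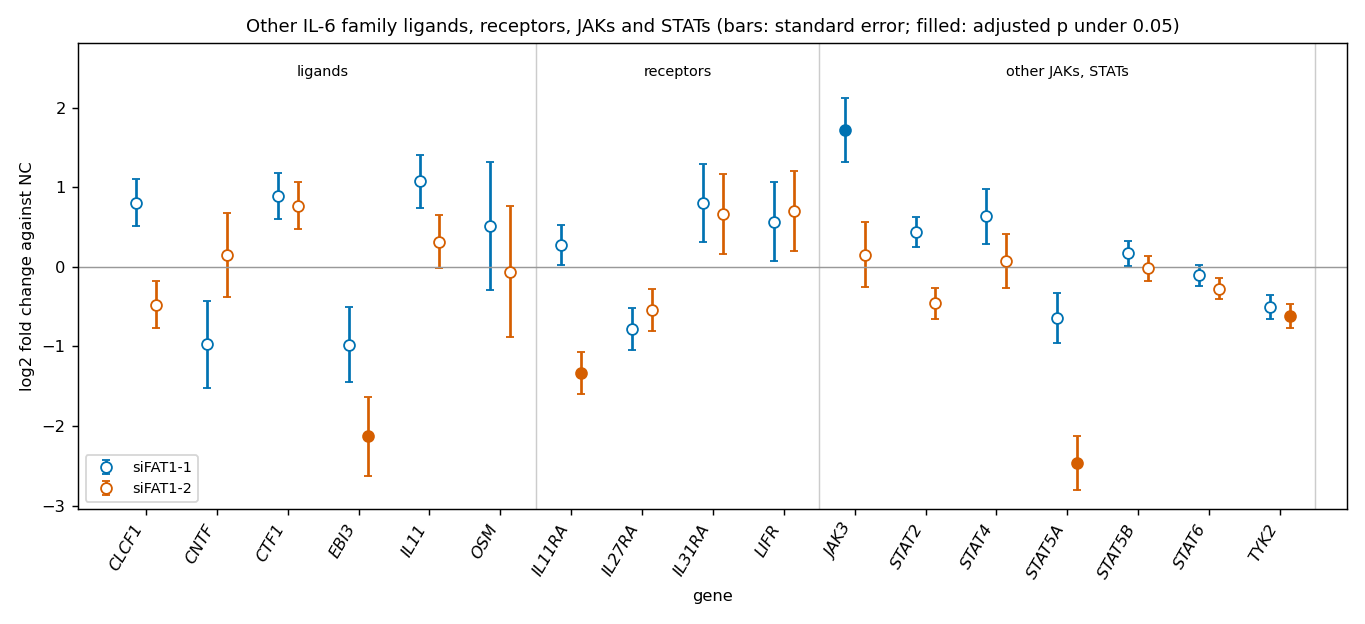
Log2 fold changes against NC over both cell lines (y axis) of other ligands, receptors, JAKs and STATs (x axis), with siFAT1-1 in blue and siFAT1-2 in orange; bars are standard errors and filled symbols had an adjusted p under 0.05. The filled symbols are JAK3 for siFAT1-1 and EBI3, IL11RA, STAT5A and TYK2 for siFAT1-2. Some genes of these lists are not shown.

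The inhibitors, adaptors and targets were mixed. Of 15 negative regulators tested, 2 were called lower with siFAT1-2, where 7.47% of all genes were. These were PTPN1, a phosphatase of JAKs (-0.88 ± 0.153, adjusted p = 0.00647), and CISH, a SOCS family member (-0.91 ± 0.242, adjusted p = 0.0325, called in 4 of the 12 fits that left out a library). With siFAT1-1 edgeR called 0, and 3 of the 15 had an unadjusted P under 0.05, beside 19% of all genes. DESeq2 called SOCS7 lower with siFAT1-1 (adjusted p = 0.0367). PTPN11 was called higher there with the GC correction and the replicate block together (adjusted p = 0.0495). Between the siRNAs 3 of the 15 were called higher with siFAT1-1 and 2 lower, where 10% and 7.39% of all genes were. Over both siRNAs SOCS7 was at -0.61 ± 0.175 (adjusted p = 0.142) and PTPN11, a phosphatase that binds gp130, at 0.69 ± 0.204 (adjusted p = 0.151). Of 10 adaptors and sheddases 1 was called lower with siFAT1-1 (beside 2.09% of all genes), GRB2, an adaptor toward RAS (-1.02 ± 0.182, adjusted p = 0.0116), though not without either HN30 siFAT1-1 library (adjusted p = 0.0611 and 0.0583). ADAM10 and ADAM17, which shed IL-6R, were in that list and were not called against NC for either siRNA. Of 27 STAT3 targets tested, 0 were called with siFAT1-1, and 4 fell with siFAT1-2 (beside 7.47% of all genes). These were CCND1, cyclin D1 (-1.40 ± 0.249, adjusted p = 0.00683), IRF1, an interferon-responsive transcription factor (-1.44 ± 0.301, adjusted p = 0.0127), IL4R (-0.66 ± 0.179, adjusted p = 0.0345) and SBNO2 (-0.70 ± 0.198, adjusted p = 0.0410). CCND1 and IRF1 were called in all 12 fits that left out a library, IL4R in 4 and SBNO2 in 2, and with the GC correction 2 of the targets were called. Between the siRNAs 5 targets were called higher with siFAT1-1 and 1 lower (beside 10% and 7.39% of all genes). With the GC correction 2 were higher and 2 lower there, and leaving out a library gave 1 to 6 higher and 0 to 2 lower. The shares of all genes called with the GC correction or without a library are not given here. The median log2 fold change of the 27 was 0.156 with siFAT1-1 and -0.231 with siFAT1-2. Genes of this paragraph other than SOCS7, PTPN11, IRF1 and IL4R were named after their values were seen.

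A broader list of 87 cytokine and JAK-STAT genes, 6 of them among the 10, had 66 genes that could be tested. With siFAT1-2, 15 of the 66 (22.7%) were called lower and 2 higher, beside 7.47% and 4.35% of all genes, and the median log2 fold change was -0.398. With the GC correction 9 were called lower, and leaving out a library gave 6 to 16, where the shares of all genes are not given here. With siFAT1-1, 2 of the 66 (3.03%) were called in each direction, beside 1.16% of all genes higher and 2.09% lower, with a median of 0.0289. The 6 genes with the smallest P over both siRNAs were TYK2 (-0.56 ± 0.138, adjusted p = 0.0944), PTPN11, the cytokine IL1B (-1.66 ± 0.442, adjusted p = 0.121), the cytokine CSF1 (-0.49 ± 0.138, adjusted p = 0.135), the common gamma chain IL2RG (-2.26 ± 0.589, adjusted p = 0.117) and the leptin receptor LEPR (1.73 ± 0.571, adjusted p = 0.190), and edgeR called none of them. By siRNA, IL1B fell (-2.64 ± 0.355, adjusted p = 0.00319) and LEPR rose (2.20 ± 0.527, adjusted p = 0.0432) with siFAT1-1, and TYK2, CSF1 (-0.63 ± 0.131, adjusted p = 0.0125) and IL2RG (-2.86 ± 0.71, adjusted p = 0.0248) fell with siFAT1-2. IL1B was called in all 12 fits that left out a library, LEPR in 4 (adjusted p up to 0.155, without HN30 siFAT1-1 repeat 1) and IL2RG in 7 (up to 0.0748, without HN30 NC repeat 1), and CSF1 was not called with the GC correction (adjusted p = 0.0909).

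The genes whose levels followed IL6 most closely over the 12 libraries, by the mean absolute difference in log2 CPM relative to the NC mean of the line, were TUBB6, a tubulin (0.184), ARPC1B, an actin-branching subunit (0.195), and IL17D, a cytokine (0.204). Those closest to SOCS3 were RNPEPL1 (0.155), BMP1, a metalloproteinase (0.168), and ATP13A2, a lysosomal transporter (0.171). All 6 had lower fitted levels with siFAT1-2 than with NC, with log2 fold changes from -1.08 to -0.83. They were picked for this likeness, so these values are a description.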

How the data were processed

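The 12 libraries were deposited by the authors as raw counts per gene, made per the submitters' notes with HISAT2, featureCounts and hg38. Tool versions and the strand setting were not given in the sources used here, so reads of overlapping antisense genes cannot be told apart. The distinct symbols were matched to GENCODE 44 by symbol (18278), by an older symbol (756) or not at all (189). Libraries held 26430049 to 47639010 counts (median 32561793).

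Genes were kept with filterByExpr at a minimum count of 10 (13887 of 19225), scaled by TMM and tested with the quasi-likelihood test of edgeR 4.0.16 in R 4.3.3, with cell line in the model and Benjamini-Hochberg adjustment over all genes. Models had KD, siRNA, or KD within each line, and the NC libraries of the lines were compared in a model of 6 condition means. Intervals of 95% are the log2 fold change ± 1.96 SE. Alternatives were DESeq2 1.42.0 (size factors, Wald test), limma 3.58.1 (voom), total-count scaling, no filter, the repeat as a block, no cell line term and leaving out each library. The block was not run between the lines, and the fit with no cell line term was run only for KD over both siRNAs. The GC correction (a lowess fit with span 0.3 as an offset, for 13795 genes with a GC value), its combination with the block, siRNA comparisons within each line, and the order of levels in HN6 NC repeat 1 alone were chosen after seeing the data. A library left alone in its condition was assumed to vary like the others. Figures were drawn with matplotlib 3.10.9 in Python 3.11.15.

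The repeats carry numbers that mark separate times, so they pair the samples. Deviations of the same-numbered libraries correlated across genes at r = 0.0778, 0.219 and 0.242 in HN6 and at -0.0336, 0.405 and -0.0215 in HN30.

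The members and lists were chosen with earlier results of these data known, and the lists were written by hand. Named were the 10 genes, FAT1, and other ligands, receptors, JAKs and STATs, though not every one of them. So were up to 6 genes of each further list with the smallest unadjusted P under 0.05 for KD against NC, and the 3 genes closest to IL6 and to SOCS3. Some listed genes are not reported here.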

Additional observations from a re-analysis of the deposited data

Results flagged for a closer look

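For 5 of the 10 genes, both libraries of an siRNA lay on opposite sides of both NC libraries in HN6 and HN30. With siFAT1-1, LIF had a log2 fold change of -0.379 in HN6 and 0.919 in HN30, an interaction of 1.3 (adjusted p = 1). SOCS1 had -0.642 and 0.565 (interaction 1.21, adjusted p = 1), and SOCS3 had -0.347 and 0.402 (interaction 0.749, adjusted p = 1). With siFAT1-2, JAK2 had 1.26 in HN6 and -0.269 in HN30 (interaction -1.53, adjusted p = 0.784), a comparison that includes HN6 NC repeat 2, where JAK2 was at 0.763 CPM. STAT3 had -0.42 and 0.0901 (interaction 0.51, adjusted p = 0.784). These p-values came from edgeR, and no difference between the lines was called. Among all genes tested, 3.16% lay on opposite sides in this way with siFAT1-1 and 2.8% with siFAT1-2, beside 3 and 2 of the 10 genes.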

How the results depend on the processing

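With 2 repeats a condition and shared NC libraries, the calls rested on few libraries, and the IL6ST and JAK2 values turned on the unlike NC repeats of HN6. JAK2 had as few as 27 counts in a library and SOCS1 26. Of the 9 alternatives, the fit with no cell line term was run only for KD over both siRNAs. No gene of the 10 was called for KD over both siRNAs, within a line or for the interaction under any alternative run or any of the 12 left-out libraries. The LIF decrease with siFAT1-2 and the IL6R and LIF differences between siRNAs were called under every alternative run for them and every left-out library. Counts of called genes moved as follows. The shares of all genes called under these settings are not given beside them, so the counts are read only as changes from the main fit. For siFAT1-1 against NC, 2 were called in place of 1 with DESeq2's Wald test, the GC correction, and the GC correction with the block, and leaving out a library gave 0 to 2. For siFAT1-2 against NC, 1 was called in place of 3 with total counts, where the median log2 fold change of all genes was 0.114 in place of -0.00439. For this comparison 2 were called with limma-voom, 2 with the GC correction and 4 with DESeq2's Wald test, and leaving out a library gave 1 to 3. Between the siRNAs 3 were called in place of 4 with the GC correction, and leaving out a library gave 2 to 4. Between the lines, 0 were called in place of 2 with total counts and 1 with the GC correction, and leaving out a library gave 0 to 3. With total counts the FAT1 decrease over both siRNAs (adjusted p = 0.0673), the IL6 (0.0612) and SOCS3 (0.0597) decreases with siFAT1-2 and the line differences in STAT3 (0.102) and SOCS1 (0.0633) were not called. With limma-voom the IL6 decrease was not called (0.0507), and FAT1 over both siRNAs was not without the cell line term (0.331). JAK2 was called between the lines with no filter (0.0495), DESeq2's Wald test (0.0221) and limma-voom (0.0123). The cause of these shifts was not tested.

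With the replicate block, the counts were 0 for KD, 1 for siFAT1-1, 3 for siFAT1-2 and 4 between the siRNAs. The block ended the call of IL6 (-0.9469, adjusted p = 0.0565) and of FAT1 over both siRNAs (adjusted p = 0.0757), and made that of IL6R with siFAT1-2 (-0.7683, adjusted p = 0.0177), which the GC correction with the block (0.0295) and DESeq2's Wald test (0.0334) called too. It changed no other call among the 10 genes.

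Signs changed for some values that were not called in the analysis as reported. IL6ST with siFAT1-2 was at 0.271 with limma-voom and 0.1033 with the replicate block, and within HN6 it was at 0.479 with limma-voom. Its interaction was 0.2322 with the GC correction. OSMR between the siRNAs was at -0.01483 with total counts. JAK2 between the siRNAs was at 0.186 with the GC correction and 0.2125 with the GC correction and the replicate block. STAT3 within HN6 was at 0.008053 with DESeq2's size factors, 0.09491 with total counts, 0.00805 with DESeq2's Wald test, 0.1163 with the GC correction and 0.1146 with the GC correction and block. LIF within HN30 was at -0.105 with limma-voom, and between the lines it was at 0.09455 with total counts and 0.2024 with the GC correction.

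Leaving out a library changed the sign of further log2 fold changes. For KD over both siRNAs, IL6ST ran from -1.235 to 0.04495 and SOCS1 from -0.3729 to 0.02625. For siFAT1-1, LIF ran from -0.008731 to 0.4736, JAK2 from -0.1186 to 0.5955, SOCS1 from -0.3055 to 0.1669 and SOCS3 from -0.0742 to 0.2036. For siFAT1-2, IL6ST ran from -0.8342 to 0.9048 and JAK1 from -0.02476 to 0.2386. Between the siRNAs OSMR ran from -0.01936 to 0.1946. Within HN6, IL6R ran from -0.119 to 0.807, IL6ST from -1.787 to 3.579, OSMR from -0.1462 to 0.3743, JAK2 from -0.07982 to 2.927 and STAT3 from -0.2253 to 0.1554. Within HN30, LIF ran from -0.2868 to 0.9416, JAK2 from -0.04562 to 0.1932 and SOCS3 from -0.4496 to 0.1012. The interaction of IL6 ran from -0.3015 to 0.7494, of IL6R from -0.06429 to 0.8986, of IL6ST from -4.43 to 0.9397, of OSMR from -0.01744 to 0.5996, of JAK1 from -0.2712 to 0.03353 and of JAK2 from -2.851 to 0.1606. Between the lines, IL6 ran from -0.2806 to 0.756, LIF from -0.8192 to 0.4079, IL6R from -0.113 to 0.6085 and IL6ST from -0.2584 to 5.099, the last with HN6 NC repeat 2 as the only NC library of HN6, whose spread was then assumed from the other groups (adjusted p = 0.000151).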
